A study of Mus musculus with 44 samples.

Results

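The enzymes and carriers that turn cholesterol into estradiol in the ovarian follicle were followed as a set of 9 genes, Scarb1, Star, Cyp11a1, Fdx1, Fdxr, Hsd3b1, Cyp19a1, Hsd17b1 and Por. The rows bearing these symbols were taken from both deposited gene tables, 9 of 22674 rows in the table of the maturation window and 9 of 18274 in that of the ovulation window. All 9 genes passed the filter on low values in each window. RNA had been sequenced from ovarian follicles of wild-type CD-1 mice, an outbred strain. PFNA, which stands for perfluorononanoic acid and belongs to the per- and polyfluoroalkyl substances, was applied either while follicles matured under gonadotropin or while ovulation was induced with hCG (human chorionic gonadotropin, which acts on the luteinizing hormone receptor). In the maturation window 11 control libraries carried the label DMSO, the solvent, and 10 carried the label PFNA. In the ovulation window 12 control libraries carried the label hCG and 11 the label hCG with PFNA, so that every library of this window had received hCG. Age of the mice, dose and exposure time were not given in the sources used here, nor whether libraries came from separate animals or cultures, so p-values measure only the spread between these libraries.

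Steroid synthesis begins when lipoprotein cholesterol is taken up and carried to the inner mitochondrial membrane, where the side chain is cleaved to give pregnenolone. A dehydrogenase then makes progesterone, and androgen is finally aromatized to estrogen. In the follicle the work is shared: theca cells make androgen, and granulosa cells aromatize it under follicle-stimulating hormone. After the surge of luteinizing hormone, which hCG mimics, granulosa cells luteinize, a change known for a rise in progesterone synthesis and a fall in aromatase. Whole follicles were sequenced, so fewer cells of a type and less RNA per cell cannot be told apart.

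Of the 9 genes, 6 had an entry in the RefSeq promoter table (build GRCm38.p6), which holds 250 bases before and 50 bases after a gene's start; Scarb1, Star and Hsd17b1 were not matched. The stretches shown are those before the start of Hsd3b1, whose PFNA difference did not pass the test in either window, and of Fdxr, Por and Cyp11a1, which fell in the ovulation window. Bases lying in annotated exons were left out, except in the short stretch of Cyp11a1. The table lists 2 starts of Cyp11a1: the upstream one, at 57998024, is also where the ovulation table begins the gene, and the other, at 58014952, lies inside the gene, with all 250 bases before it in annotated exons. Of the latter only 30 bases are shown, chosen because they hold a match to the plain nuclear receptor half-site. The maturation table begins Cyp11a1 at 58006411, and the bases before that start were not searched. Capitals mark matches on either strand to any of the motifs searched. These were AAGGNCA, known as an extended half-site of nuclear receptors, and TCAAGG, the core of the site that NR5A receptors bind as monomers. Further motifs were AGGTCA, the plain half-site of many nuclear receptors, and TGANTCA, which AP-1 factors bind. The C/EBP-like motif was TTNCNNAA and the half-site of the cAMP response element was TGACG. The GATA motif was AGATAA and the GC box, bound by factors such as Sp1, was GGGCGG. The NR5A core and the plain nuclear receptor half-site were added to this search after the sequences had been read. The stretches read 5′ to 3′ along the strand of the gene.
Hsd3b1, chr3:98859795-98860044, minus strand: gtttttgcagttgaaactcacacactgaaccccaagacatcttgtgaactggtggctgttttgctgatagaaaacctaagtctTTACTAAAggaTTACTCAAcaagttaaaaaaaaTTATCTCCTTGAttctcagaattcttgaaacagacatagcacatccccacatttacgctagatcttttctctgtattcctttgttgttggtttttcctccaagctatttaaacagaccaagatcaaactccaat
Fdxr, chr11:115277051-115277219, minus strand: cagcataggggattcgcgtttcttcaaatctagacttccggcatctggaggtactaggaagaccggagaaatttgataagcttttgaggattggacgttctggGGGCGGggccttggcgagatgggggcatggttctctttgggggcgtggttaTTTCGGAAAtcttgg
Por, chr5:135688895-135689035, plus strand: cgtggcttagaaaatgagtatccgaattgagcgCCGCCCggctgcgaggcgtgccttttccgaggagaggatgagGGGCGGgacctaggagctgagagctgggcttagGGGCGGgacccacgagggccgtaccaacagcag
Cyp11a1, upstream start, chr9:57997774-57998023, plus strand: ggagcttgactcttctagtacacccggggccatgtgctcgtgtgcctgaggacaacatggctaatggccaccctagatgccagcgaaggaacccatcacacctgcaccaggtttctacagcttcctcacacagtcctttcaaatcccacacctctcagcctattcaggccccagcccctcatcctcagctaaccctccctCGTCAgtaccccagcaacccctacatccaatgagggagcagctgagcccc
Cyp11a1, start inside the gene, chr9:58014922-58014951, plus strand: ggAGGTCAccgctccatcagcttctctctt

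The 250 bases before the Hsd3b1 start held a GATA match and an NR5A core match side by side, at positions -134 to -129 and -128 to -123 from that start, and were 36.4% G and C. They also held C/EBP-like matches at -167 to -160 and -156 to -149. The 250 bases before the starts of Fdxr and Por were 54.8% and 65.6% G and C. All matches of Por were GC boxes, and those of Fdxr were GC boxes and overlapping C/EBP-like matches. For both genes some GC boxes lay in the exon bases that are not shown. In all 32851 promoters of the table, the 250 bases before the start held the extended half-site in 17.5%, the NR5A core in 12.5%, the plain half-site in 14.0%, the AP-1 motif in 6.75%, the C/EBP-like motif in 36.8%, the cAMP half-site in 17.8%, the GATA motif in 9.99% and the GC box in 32.7%. The upstream start of Cyp11a1 had a cAMP half-site match at positions -50 to -46. Fdx1, whose stretch is not shown, had NR5A core matches at -122 to -117 and -74 to -69 and a GC box. Cyp19a1, also not shown, had a plain half-site match before its start at 54268164. Before its starts at 54228914 and 54193743 it had no match to any motif. A match describes letters in this window and no more.

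In the maturation window, libraries did not fall cleanly into control and PFNA. On the first principal component controls spanned -37.7 to -7.60. PFNA replicates 1 and 2 sat inside that span, at -18.1 and -10.6, whereas the remaining 8 scored between 33.4 and 48.8. Summed oocyte markers (12 genes, among them Gdf9, Bmp15 and Zp3) made up 0.0155% to 0.0245% of TPM in controls and 0.000681% to 0.0369% with PFNA. PFNA replicates 3 to 9 were the low ones, and of the 12 markers 11 were above 0 in every control and 2 in every PFNA library. Summed granulosa markers (8 genes) ran from 3.24% to 5.23% in controls and from 1.42% to 3.89% with PFNA. The granulosa sum mostly followed Inha, with a control median of 34768 TPM. Summed theca markers (6 genes, all above 0 in every library) ran from 0.0257% to 0.0905% and from 0.0151% to 0.0536%. By limma 0 granulosa markers were called higher and 4 lower of 8 tested. For theca markers it was 2 higher and 1 lower of 6, and for oocyte markers 0 higher and 11 lower of 11. Immune, endothelial and blood markers (8 genes, 6 of them in the table) ran from 0.000791% through a median of 0.00194% to 0.00579% in controls and from 0.00133% through 0.00367% to 0.00733% with PFNA. Of these, 1 of the 4 tested, Cd68, was called higher (log2 fold change 0.79, limma adjusted p = 0.043). Of all genes tested in this window 13.3% were called higher and 16.1% lower. In the ovulation window the first component parted every control from every PFNA library, library totals ran from 10600931 to 19511531 counts, and the oocyte share ran from 0.00833% to 0.0429% in controls and from 0.00200% to 0.0605% with PFNA. There, summed granulosa markers ran from 1.26% to 1.68% in controls and from 1.14% to 1.57% with PFNA, theca markers from 0.00781% to 0.0256% and from 0.0166% to 0.0376%. By edgeR 4 granulosa markers were called higher and 2 lower of 8 tested. The 2 lower, Inha and Inhba (control medians 7330 and 6710 CPM), made up most of the granulosa sum. For theca markers it was 3 higher and 1 lower of 6, and for oocyte markers 6 higher and 0 lower of 11. Immune, endothelial and blood markers ran from 0.00297% through a median of 0.00900% to 0.0121% in controls and from 0.00411% through 0.0150% to 0.0336% with PFNA. Of the 6 tested, 4 (Pecam1, Kdr, Cd68 and Cdh5) were called higher, where 38% of all genes tested in the ovulation window were called higher and 35.2% lower. The part of these marker shares in the differences described here was not tested beyond the fits with the oocyte share as a covariate.

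During maturation 2 genes of the last steps of the pathway were lower with PFNA. Cyp19a1, the aromatase that makes estrogen from androgen, and Hsd17b1, which reduces estrone to estradiol, fell, and the other 7 genes did not pass the test. By limma 2 of 9 genes had an adjusted p under 0.05, both lower. Of 13712 genes tested 29.4% passed, 13.3% higher and 16.1% lower. The share of members called in either direction was thus not above that of all genes. The median log2 fold change was -0.18 over the 9 genes and 0.02 over all genes tested. Both calls were lost, with 0 of 9 genes called, when the oocyte share was a covariate (Cyp19a1 -1.03 with adjusted p = 0.062, Hsd17b1 -0.87 with adjusted p = 0.093). Values of this window were taken as TPM, a unit scaled by transcript length to a fixed total per library. The fixed total was seen in the values, but the lengths were not checked. Log2 fold changes are on the log2(TPM + 1) scale, and depth is unknown.

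**Figure D1:**
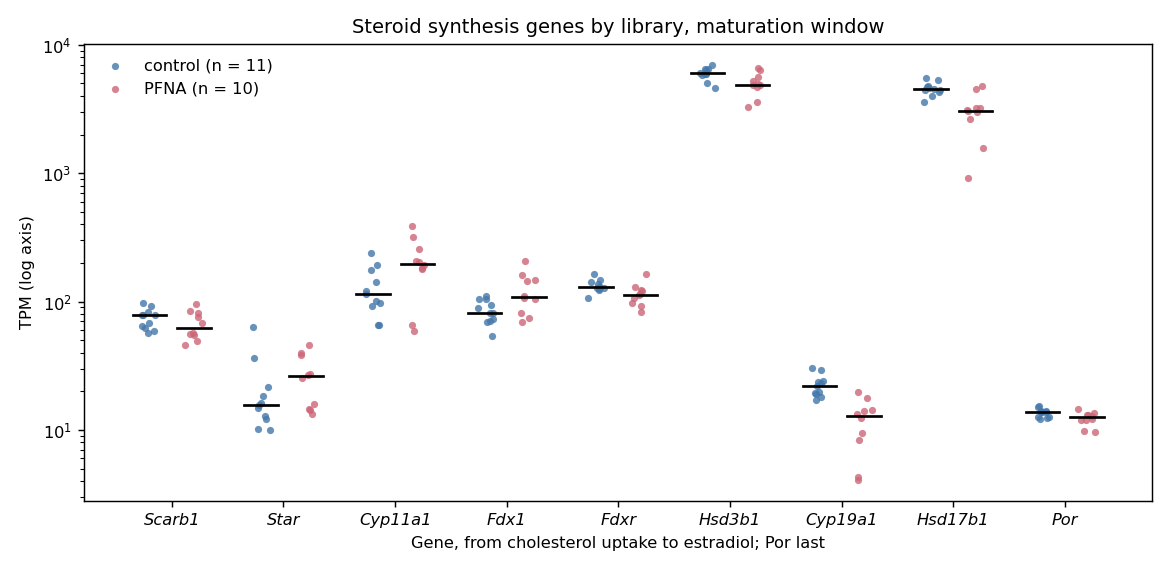
TPM on a log axis of each of the 9 genes in every library of the maturation window; points are libraries (11 control, 10 PFNA) and black lines are medians. The PFNA points of Cyp19a1 and Hsd17b1 reach below the control points, while those of Cyp11a1 and Fdx1 reach above them and those of Star lie among them.

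By the deposited values, control follicles held Hsd3b1 and Hsd17b1 far above the rest. Their medians were 6009 and 4516 TPM, and those of Fdxr, Cyp11a1, Fdx1, Scarb1, Cyp19a1, Star and Por were 129, 115, 81.7, 78.7, 21.9, 15.6 and 13.8 TPM. In this order the ranges over the 11 controls overlapped between neighbours except from Hsd17b1 to Fdxr and from Scarb1 to Cyp19a1. The length by which each gene was scaled was not checked, so this order of genes is uncertain.

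Cyp19a1 (chromosome 9, 54165937 to 54268110, GRCm38) ran from 17.2 through a median of 21.9 to 30.6 TPM in controls, and from 4.07 through 12.9 to 19.7 TPM with PFNA. In PFNA 8 of 10 libraries lay below every control; replicates 7 and 10 were lowest, and replicates 2 and 5 lay within the control range. The log2 fold change was -0.98 (SE 0.22, limma adjusted p = 0.0018). Over all genes tested, every PFNA library lay below every control for 0.788% and above every control for 0.489%, and no member was among them.

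Hsd17b1 (chromosome 11, 101078411 to 101080527) ran from 3600 through 4516 to 5487 TPM in controls, and from 914 through 3073 to 4761 TPM with PFNA. Again 8 of 10 PFNA libraries lay below every control. The 2 that did not were replicates 1 and 2, and the lowest were once more replicates 10 and 7. Its log2 fold change was -0.72 (SE 0.21, limma adjusted p = 0.012).

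The genes of uptake, transport and side-chain cleavage overlapped between groups. Scarb1, the receptor that takes up cholesteryl ester from lipoprotein, ran from 56.5 through 78.7 to 97.2 TPM in controls and from 45.6 through 62.2 to 95.4 TPM with PFNA (log2 fold change -0.18, SE 0.13, limma adjusted p = 0.32). Star, which moves cholesterol into the mitochondrion, ran from 9.92 through 15.6 to 63.8 TPM and from 13.2 through 26.1 to 46.1 TPM (0.39, SE 0.30, limma adjusted p = 0.33). No PFNA library lay outside the control range of Star, which control replicate 10 and the unnumbered control stretched upward.

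Cyp11a1, the side-chain cleavage enzyme, ran from 65.5 through 115 to 238 TPM in controls and from 59.2 through 197 to 387 TPM with PFNA (log2 fold change 0.59, SE 0.31, limma adjusted p = 0.15). Its PFNA libraries split widely, with replicate 1 below the control range, replicate 7 at its foot and replicates 3, 6 and 8 above it. Without PFNA replicates 1 and 2, Cyp11a1 was called higher and Hsd3b1 lower (0.77 with adjusted p = 0.043 and -0.32 with adjusted p = 0.027), and 4 of 9 genes passed.

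Fdx1, the ferredoxin that hands electrons to Cyp11a1, ran from 54.2 through 81.7 to 111 TPM in controls and from 68.9 through 109 to 208 TPM with PFNA (log2 fold change 0.45, SE 0.17, limma adjusted p = 0.056). Fdxr, the reductase that charges this ferredoxin, ran from 106 through 129 to 164 TPM and from 82.9 through 113 to 165 TPM (-0.23, SE 0.095, limma adjusted p = 0.073). For both genes PFNA replicate 8 was the highest library, and the groups overlapped.

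Hsd3b1, which makes progesterone from pregnenolone, ran from 4593 through 6009 to 6990 TPM in controls and from 3282 through 4896 to 6644 TPM with PFNA (log2 fold change -0.28, SE 0.11, limma adjusted p = 0.057). Por, the reductase that serves microsomal P450 enzymes including aromatase, ran from 12.1 through 13.8 to 15.4 TPM and from 9.57 through 12.5 to 14.6 TPM (-0.14, SE 0.066, limma adjusted p = 0.11). Groups overlapped in both. Calls near the threshold depended on single libraries: without control replicate 8, PFNA replicate 1 or PFNA replicate 8, 4 of 9 genes passed, Cyp19a1 and Hsd17b1 among them each time.

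In the ovulation window the members called went in both directions. Scarb1, Star, Cyp11a1, Fdxr and Por were lower with PFNA, by 1.88-fold to 4.39-fold, and Cyp19a1 and Hsd17b1 were higher, by 4.70-fold and 4.05-fold. Hsd3b1 and Fdx1 did not pass the test. By edgeR's quasi-likelihood test 7 of 9 genes had an adjusted p under 0.05, where 73.2% of 13441 genes tested passed, 38% higher and 35.2% lower, so the share of members called was near that of all genes. The median log2 fold change was -0.91 over the 9 genes and 0.04 over all genes tested. Values are CPM, counts scaled to a common library total after TMM normalization, which are not divided by length and are therefore compared between libraries and not between genes.

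**Figure D2:**
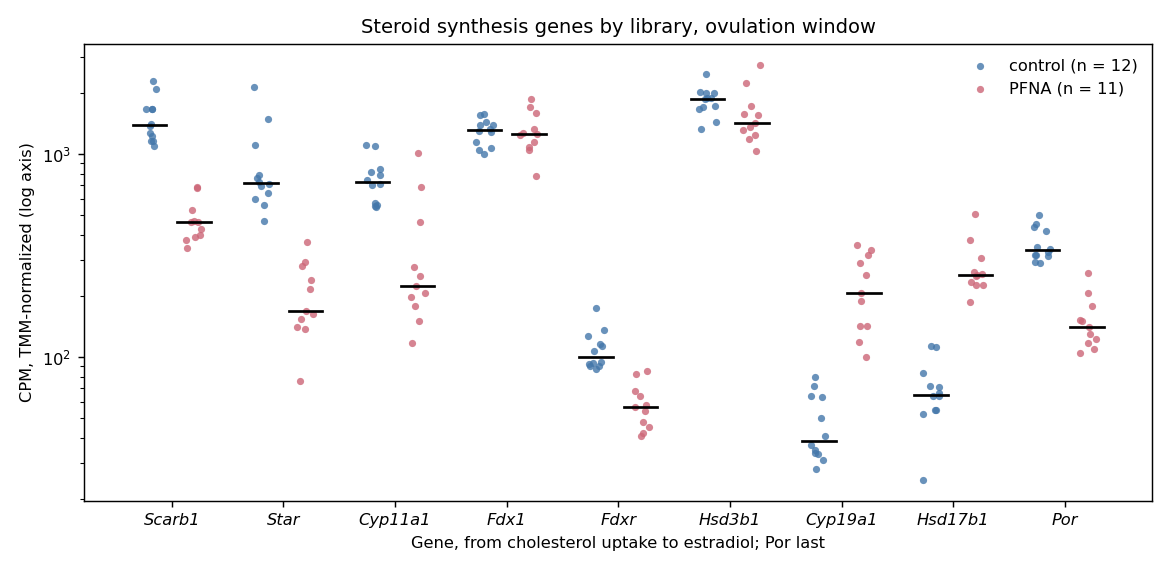
CPM on a log axis of each of the 9 genes in every library of the ovulation window; points are libraries (12 control, 11 PFNA) and black lines are medians. PFNA points lie wholly below the controls for Scarb1, Star, Fdxr and Por, and wholly above them for Cyp19a1 and Hsd17b1. Those of Fdx1 and Hsd3b1 overlap the controls and reach beyond them on both sides.

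Scarb1 (chromosome 5, 125277087 to 125341094) ran from 1096 through a median of 1392 to 2290 CPM in controls, and from 345 through 461 to 691 CPM with PFNA. All 11 PFNA libraries lay below the lowest control, replicates 5 and 6 being the highest of them. Its log2 fold change was -1.66 (SE 0.14, edgeR adjusted p = 8.4e-11). Every PFNA library lay below every control for 14.1% of the genes tested, and above every control for 11.9%.

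Star (chromosome 8; 25806555 to 25815982 in the maturation table) had the deepest fall of the 9. It ran from 465 through 719 to 2148 CPM in controls, and from 76.4 through 168 to 368 CPM with PFNA. No PFNA library reached the lowest control. The controls were themselves spread, replicates 4 and 5 being highest. The log2 fold change was -2.13 (SE 0.27, edgeR adjusted p = 1.3e-07), a 4.39-fold fall.

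Cyp11a1 (chromosome 9; 58006411 to 58027023 in the maturation table) ran from 549 through 731 to 1105 CPM in controls, and from 117 through 223 to 1012 CPM with PFNA. Of 11 PFNA libraries 9 lay below every control, and replicates 5 and 6, at 687 and 1012 CPM, lay within the control range. The same 2 libraries held the most Lhcgr, the luteinizing hormone receptor, at 365 and 779 CPM, where the PFNA median was 92.6 CPM. The log2 fold change of Cyp11a1 was -1.14 (SE 0.30, edgeR adjusted p = 0.0014).

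The electron donors did not move as 1 group. Fdx1 ran from 1005 through 1314 to 1577 CPM in controls and from 783 through 1251 to 1875 CPM with PFNA, so that the groups overlapped (log2 fold change 0.0098, SE 0.12, edgeR adjusted p = 0.94). Fdxr ran from 87.6 through 100.2 to 174 CPM and from 40.6 through 56.9 to 85.6 CPM, with 11 of 11 PFNA libraries below every control (-0.91, SE 0.13, edgeR adjusted p = 1.5e-06). Por ran from 289 through 335 to 500.0 CPM and from 105 through 141 to 259 CPM, again with all 11 below (-1.26, SE 0.14, edgeR adjusted p = 1.2e-08).

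Hsd3b1 ran from 1327 through 1874 to 2478 CPM in controls and from 1029 through 1430 to 2756 CPM with PFNA. PFNA replicate 2 was the highest library of the window, 4 PFNA libraries lay below every control, and the difference did not pass (log2 fold change -0.21, SE 0.14, edgeR adjusted p = 0.16). Without PFNA replicate 2 it passed, at -0.33 with adjusted p = 0.013. Its relative Hsd3b6, a 3-beta-hydroxysteroid dehydrogenase at low level, ran from 0 to 0.726 CPM in controls and from 3.0 to 7.56 CPM with PFNA. All 11 PFNA libraries lay above every control (log2 fold change 4.89, SE 0.43, edgeR adjusted p = 1.7e-10). How reads were split between these related genes is not given in the sources used here, so the Hsd3b6 value is uncertain. Hsd3b7, which acts on bile acid precursors, had a median of 5.40 CPM in controls and 6.0 CPM with PFNA and did not pass (adjusted p = 0.37). Hsd3b2, Hsd3b3 and Hsd3b4 were too low to test.

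Cyp19a1 ran from 28.1 through 38.6 to 79.9 CPM in controls, and from 99.9 through 206 to 356 CPM with PFNA. Every PFNA library lay above the highest control, replicates 6 and 2 furthest. The log2 fold change was 2.23 (SE 0.24, edgeR adjusted p = 7.7e-09). Hsd17b1 ran from 24.7 through 65.2 to 113 CPM in controls, and from 186 through 255 to 505 CPM with PFNA. Here too all 11 PFNA libraries lay above every control (2.02, SE 0.19, edgeR adjusted p = 1.7e-09).

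In the ovulation window every PFNA library lay below the controls for Star and above them for Cyp19a1. Set against each other within a library, the 2 genes therefore had to part these groups with a gap. The log2 ratio of Cyp19a1 to Star CPM ran from -6.02 through -4.11 to -3.33 in controls and from -1.26 through 0.048 to 1.31 with PFNA. In TPM of the maturation window it ran from -1.06 through 0.44 to 0.99 in controls and from -3.50 through -1.27 to 0.31 with PFNA, lower with PFNA in the median and overlapping. The log2 ratio of Hsd17b1 to Hsd3b1 showed the same order of groups. In the ovulation window it ran from -6.11 to -4.16 in controls and from -2.81 to -2.02 with PFNA, and in the maturation window from -0.60 to -0.17 and from -1.84 to -0.093.

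**Figure D3:**
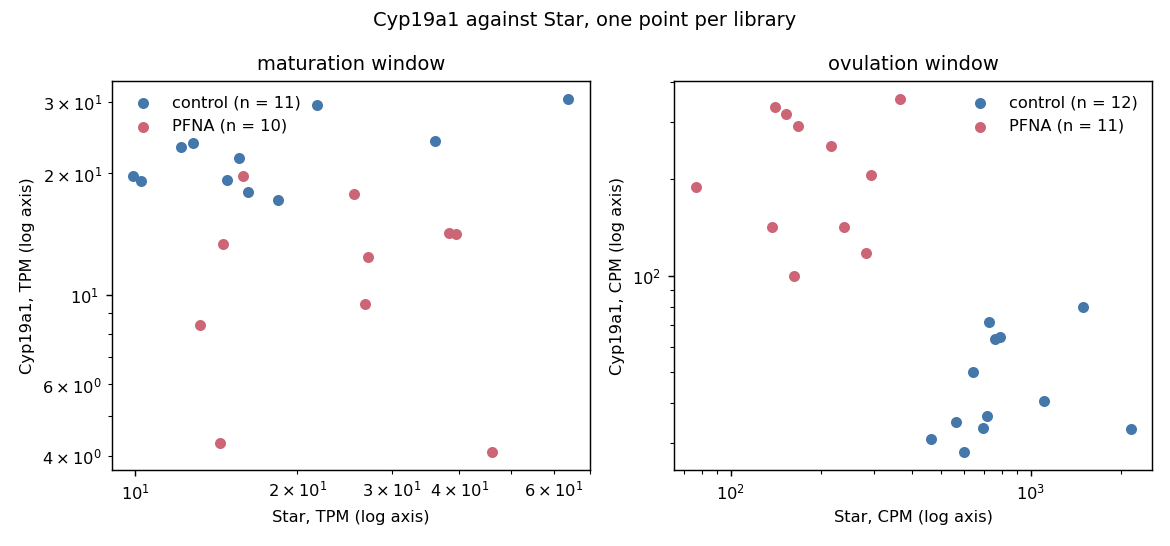
Cyp19a1 against Star in each library, both on log axes, in TPM for the maturation window and CPM for the ovulation window; each point is a library. In the ovulation window controls lie at high Star and low Cyp19a1 and PFNA libraries at low Star and high Cyp19a1, while in the maturation window the groups overlap along Star and PFNA libraries reach lower Cyp19a1.

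The PFNA effect differed between windows for 8 of 9 genes, where 67.7% of 11215 genes tested in both windows passed, 32% higher in the ovulation window and 35.6% lower. The difference was taken as the effect in the ovulation window minus that in the maturation window, each from limma in its own table. It was 3.16 for Cyp19a1 (SE 0.31, adjusted p = 7.2e-12) and 2.76 for Hsd17b1 (SE 0.28, adjusted p = 2.0e-11). These 2 genes were called lower in maturation and higher in ovulation. Negative differences were found for Star (-2.50, SE 0.38, adjusted p = 3.2e-07), Cyp11a1 (-2.01, SE 0.41, adjusted p = 3.9e-05), Scarb1 (-1.48, SE 0.18, adjusted p = 2.2e-09), Por (-1.14, SE 0.15, adjusted p = 1.8e-08) and Fdxr (-0.68, SE 0.16, adjusted p = 0.00026). Fdx1 passed narrowly (-0.46, SE 0.21, adjusted p = 0.048), and with median-ratio size factors its adjusted p was 0.095. Hsd3b1 had a difference of 0.023 (SE 0.17, adjusted p = 0.91). The tables hold different units and gene models, and the windows had different controls, so the difference compares effects and not levels.

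**Figure D4:**
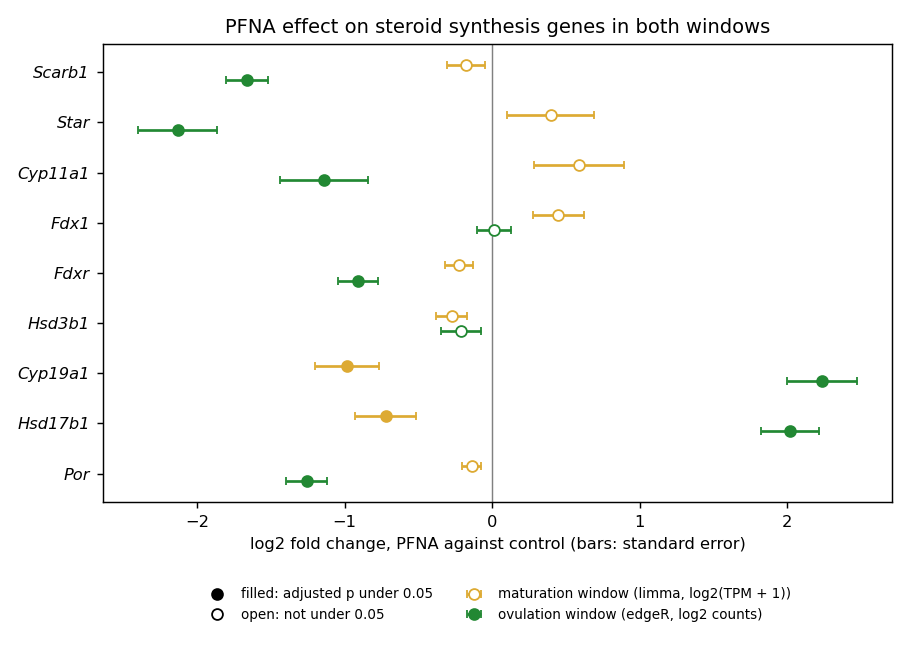
Log2 fold change of PFNA against control with its standard error for the 9 genes in the maturation window (limma on log2(TPM + 1)) and the ovulation window (edgeR); filled points have an adjusted p under 0.05. Cyp19a1 and Hsd17b1 lie left of 0 in maturation and right of 0 in ovulation, and Star lies furthest left in ovulation at -2.13.

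Within a group, members that varied together were sought over 36 pairs in each of 4 groups, 144 relations in all, on log2 values. In the maturation PFNA group replicates 1 and 2 were left out because they stood apart, which was decided with the data in view. Of the 144 relations, 23 had a Benjamini-Hochberg adjusted permutation p under 0.05 by Pearson's r. Fewer of them also passed by Spearman's rho. These were 0 in maturation controls, 2 in maturation PFNA, 1 in ovulation controls and 2 in ovulation PFNA. When the 2 libraries farthest from the median of the first gene were left out, 0 of 144 passed. That comparison has fewer libraries and a narrower spread, so failing it does not show that a relation is absent. In ovulation controls Star and Cyp11a1 had r = 0.90 and rho = 0.92 over 12 libraries (permutation p = 1e-05, the smallest the resamples can give, and 7e-05; adjusted p = 0.0014 for r), and r = 0.78 without 2 libraries (permutation p = 0.0023, adjusted p = 0.11). In ovulation PFNA libraries Cyp11a1 and Por had r = 0.92 and rho = 0.78 over 11 libraries (permutation p = 0.00018 and 0.007). The adjusted p was 0.0075 for r and 0.062 for rho, so rho did not pass. Without 2 libraries r was 0.74 (permutation p = 0.022, adjusted p = 0.28). Pairs of this group that passed by both were Cyp11a1 with Fdx1 (r = 0.90, rho = 0.89, permutation adjusted p = 0.0075 and 0.024) and Fdx1 with Por (r = 0.88, rho = 0.88, permutation adjusted p = 0.0075 and 0.025).

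Lhcgr and the members were compared in the same way, with Fshr beside it, over 72 relations chosen with earlier results known. By r 0 of 18 relations passed in maturation controls, 9 in maturation PFNA, 3 in ovulation controls and 5 in ovulation PFNA. Those of Fshr passed only in maturation PFNA. Lhcgr and Cyp11a1 had r = 0.34 over 11 maturation controls (permutation adjusted p = 0.46) and r = 0.97 over 8 maturation PFNA libraries (permutation adjusted p = 0.0022). In ovulation PFNA libraries Lhcgr and Cyp11a1 had r = 0.91 and rho = 0.86 over 11 libraries (permutation p = 0.00015 and 0.0012, adjusted p = 0.0022 for r), and r = 0.71 without 2 libraries (permutation p = 0.027, adjusted p = 0.21). In ovulation controls the same pair had r = 0.90 and rho = 0.88 over 12 libraries (permutation p = 9e-05 and 0.00023, adjusted p = 0.0022 for r), and r = 0.77 without 2 (permutation p = 0.01, adjusted p = 0.21). None of the 72 relations passed without the 2 libraries farthest from the median of the first gene.

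Over all libraries of a window, PFNA and control together, the genes most like Star by Pearson's r were Pkdcc, Aldh1a1 and Cyp17a1 in maturation (0.75, 0.74 and 0.73, over 21 libraries and 7035 genes). In ovulation they were Lrrk2, Thsd7a and Gcnt4 (0.97, 0.96 and 0.96, over 23 libraries and 9002 genes). For Cyp19a1 they included Gsta4 and 1700007K13Rik in maturation (0.95 and 0.92) and were Armcx1, Magt1 and Sec24d in ovulation (0.94 each). These values share the group difference and the libraries, and are a description.

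Of 10 genes that supply cholesterol, 1 was higher and 2 lower in maturation, and 5 were higher and 4 lower in ovulation, beside 29.4% and 73.2% of all genes called in the respective windows. Their median log2 fold changes were -0.02 and 0.17, where those of all genes tested were 0.02 and 0.04. In ovulation Lipe, the hormone-sensitive lipase that frees stored cholesterol, and Stard4, a cytosolic cholesterol carrier, were lower by edgeR (log2 fold change -2.31 with adjusted p = 4.1e-12 and -1.83 with adjusted p = 1.1e-10). Soat1, which esterifies cholesterol for storage, was higher at 1.10 (adjusted p = 3.3e-08), its PFNA libraries all above the controls. In maturation Stard4 was lower (-0.30, limma adjusted p = 0.046) and Lipa, the lysosomal lipase, was higher (0.27, adjusted p = 0.037).

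Of 13 other steroid synthesis enzymes and electron donors, 9 were tested in maturation (0 higher, 2 lower) and 11 in ovulation (3 higher, 4 lower), shares below the 29.4% and 73.2% of all genes. The medians were -0.05 and -0.0019. Cyb5a, the cytochrome b5 that assists the lyase step of Cyp17a1, fell in maturation and rose in ovulation (log2 fold change -0.50 and 0.65, adjusted p = 0.0013 by limma and 2.1e-08 by edgeR). Hsd17b12 was lower in maturation (-0.30, adjusted p = 0.00059). In ovulation Cyb5r3, the cytochrome b5 reductase, was lower at -1.26 (adjusted p = 4.6e-10), and Cyb5b, the outer mitochondrial cytochrome b5, was lower at -1.10 (adjusted p = 6.0e-14). Cyp11b1 was called lower at -1.89 (adjusted p = 0.028) at a low level. It ran from 0 through a median of 3.34 to 13.4 CPM in controls and from 0 through 0.53 to 7.78 CPM with PFNA. The groups overlapped, with 0 of 11 PFNA libraries below every control. Cyp17a1, the theca enzyme that makes androgen, was higher at 1.07 (adjusted p = 0.040). Cyp17a1 did not pass in maturation (-0.13, adjusted p = 0.75).

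Of 15 transcription factors of the pathway, 5 were higher and 2 lower in maturation and 5 higher and 7 lower in ovulation, where 29.4% and 73.2% of all genes were called. Their median log2 fold changes were 0.15 and -0.19. Nr5a2 (LRH-1), a nuclear receptor of granulosa cells, ran from 84.1 to 148 TPM in maturation controls and from 65.5 to 97.3 TPM with PFNA (-0.51, limma adjusted p = 0.00074). In ovulation it ran from 132 to 224 CPM and from 285 to 919 CPM, all PFNA libraries above the controls (1.35, edgeR adjusted p = 7.9e-09). Its relative Nr5a1 (SF-1) did not pass in maturation (0.19, adjusted p = 0.061) and was lower in ovulation (-0.60, adjusted p = 7.0e-07). In maturation Nr0b1 (DAX-1), a repressor of steroid synthesis, was higher at 1.41 (adjusted p = 0.00066), Cebpa was lower at -0.97 (adjusted p = 2.7e-05) and Nr4a2 was higher at 0.50 (adjusted p = 0.0089). Nr4a2 lay near the filter of 1 TPM there, with medians of 0.92 TPM in controls and 1.54 TPM with PFNA. Of its 10 PFNA libraries 4 lay above every control. In ovulation Foxo1 and Nr4a2 were higher at 1.98 and 1.81 (adjusted p = 5.0e-10 and 9.6e-08) and Crem was lower at -1.70 (adjusted p = 1.2e-07).

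The gonadotropin receptors and cAMP genes gave 1 higher and 3 lower of 9 tested in maturation, and 3 higher and 6 lower of 10 in ovulation, against 29.4% and 73.2% of all genes called. The medians were -0.17 and -0.25. Fshr, the receptor whose signal drives Cyp19a1, ran from 4.93 to 9.82 TPM in maturation controls and from 0.736 to 3.40 TPM with PFNA, with 10 of 10 PFNA libraries below (-1.24, SE 0.15, limma adjusted p = 7.4e-06). In ovulation it ran from 8.33 to 22.7 CPM and from 37.2 to 87.5 CPM, with 11 of 11 above (2.20, SE 0.16, edgeR adjusted p = 4.7e-12). Lhcgr did not pass in maturation (-0.41, adjusted p = 0.37) and was higher in ovulation (1.80, SE 0.42, adjusted p = 0.00053), where 5 of 11 PFNA libraries lay above every control. Also in ovulation Prkar2b, a regulatory subunit of protein kinase A, was higher at 2.57 (adjusted p = 8.0e-13), and Pde4d, a phosphodiesterase that degrades cAMP, was lower at -2.91 (adjusted p = 6.6e-12). Adcy6, an adenylyl cyclase, was higher in maturation at 0.57 (adjusted p = 0.00097), and Adcy3 and Prkar2b were lower at -0.39 and -0.32 (adjusted p = 0.0072 and 0.038).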

How the data were processed

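The maturation table holds TPM scaled by the authors to the same total in every library, although it is named as raw counts; this was found from the values. The ovulation table holds estimated counts deposited by the authors, rounded here to whole numbers. The submitters' processing notes name Partek, Bowtie2 and HISAT2; roles, versions and annotation are not given in the sources used here. Starts in the maturation table matched GENCODE M21 (GRCm38) for 99.4% of matched symbols, those in the ovulation table for 37.2%. A maturation control column whose name matched no title was kept as an unnumbered control. The smallest chi-square per degree of freedom between ovulation libraries of a group was 7.54, so none was a duplicate.

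The ovulation window was tested with edgeR 4.0.16 (filterByExpr, TMM, quasi-likelihood, robust), the maturation window with limma 3.58.1 (trend, robust) on log2(TPM + 1) at a mean of at least 1 TPM. The difference between windows used limma on log2(CPM + 1) and log2(TPM + 1) with Satterthwaite degrees of freedom. P-values were adjusted by Benjamini-Hochberg over all genes, with a threshold of 0.05, and the tests were tried on simulated data. Relations used two-sided permutation tests, 100000 resamples or exact enumeration. Members, gene lists and tests were chosen with earlier results of these data known. Named genes beside the members were, per list and window, up to 4 called genes of largest absolute log2 fold change, with Fshr, Lhcgr and the Hsd3b genes whatever their result; Cyb5a, Cyp17a1 and Nr5a1 were named after their values were seen. Like genes had a mean of at least 10 TPM or CPM. Some genes that met this rule are not reported here.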

Additional observations from a re-analysis of the deposited data

Results flagged for a closer look

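The PFNA effect differed between the windows, by a test of the difference itself, for 8 of the 9 genes, where 67.7% of 11215 genes passed. On the log2 scale, ovulation minus maturation, the difference was -1.48 for Scarb1, -2.50 for Star, -2.01 for Cyp11a1, -0.46 for Fdx1 (adjusted p = 0.095 with median-ratio size factors), -0.68 for Fdxr, 3.16 for Cyp19a1, 2.76 for Hsd17b1 and -1.14 for Por. No member had a single maturation PFNA library standing far from the other 9 libraries by Dixon's criterion, which flags about 1 in 20 groups by chance; the other groups have more than 10 libraries and were not examined this way.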

How the results depend on the processing

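In the maturation window 4030 genes were called, and 741 with the oocyte share as a covariate. Of the members 2 were called, 0 with that covariate and 4 without PFNA replicates 1 and 2; leaving out each library in turn gave 2 to 4. Same-numbered libraries did not deviate together (correlations -0.14 to 0.17 over 8 maturation pairs and -0.19 to 0.073 over 11 ovulation pairs), so the numbers were not taken as pairs. A replicate block, which leaves out unmatched libraries, called 1980 genes in maturation (576 higher, 1404 lower) and 0 members (Cyp19a1 -0.96 with adjusted p = 0.050, Hsd17b1 -0.75 with adjusted p = 0.075); in ovulation it called 9298 genes and 7 members, and the difference between windows 7 members. Rescaling without the 20 most abundant genes called Fdx1 in maturation (0.48, adjusted p = 0.045). In ovulation 7 members were called by every alternative that kept or jointly removed libraries (DESeq2, its size factors, limma, no filter, the oocyte covariate, the block and without control replicates 2 and 7 and PFNA replicate 5), and 7 or 8 when each library was left out. No member's called effect changed direction in any fit run. Of the relations among members 23 passed by Pearson's r, and 0 without the 2 libraries farthest from the median. The depth of the maturation libraries is unknown, which limits what low TPM can show.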
